A study of Homo sapiens with 6 samples.

Results

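The genes described here are those that OVSAYO, a line established from an ovarian clear cell carcinoma, expressed in cultures that had received a control hairpin inhibitor. The samples were chosen by their labels, and they were 3 of the 6 samples in the series. Per the labels, the cells were grown in RPMI 1640 with fetal bovine serum and transfected with Lipofectamine 2000 and 66 nM of miRIDIAN negative control #1, an inhibitor modelled on a C. elegans microRNA, and total RNA was taken 48 hours later. The other 3 samples, which received miR-30 inhibitors, were not compared here. The cultures are of 1 line with no engineered allele in the labels, which name biological replicates without saying what separated them, and mock-transfected cells were not analysed here. The values therefore describe transfected cells at 1 time point. The design text of the series speaks of mimics, whereas the sample labels speak of inhibitors, and the labels were followed.

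Clear cell carcinoma is a subtype of ovarian cancer that is often found together with endometriosis, tissue resembling the uterine lining outside the uterus. Its cells are known for cytoplasm rich in glycogen, for napsin A and for activated oxidant defence, and they usually lack WT1 and the oestrogen and progesterone receptors, which mark serous carcinoma. PAX8 marks epithelia derived from the Müllerian duct, from which the oviduct and the uterus form.

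Each RNA was measured on a single-colour Illumina bead array. A probe was called detected when its deposited detection score, which rises with signal from 0 to 1, was above 0.95 on all 3 arrays, and a gene was called detected through any of its probes. The arrays detected 21266, 21187 and 22062 of 48803 probes, and the mean raw signal was 222.6, 239.9 and 237.2. Values are intensities in arbitrary units, given for replicates 1, 2 and 3 in that order, and they were not background-subtracted. The weakest detected probes lay at 50.5 on average, which is called the detection level below. Of 18852 genes with a named probe, 11384 were detected (60.4%), and 7584 were also at 2 times the detection level or more (40.2%), an intensity of 101. Genes at 10 times or more, an intensity of 505, are called bright and numbered 2836 (15%). No probe was detected on any array for 6098 genes (32.3%), which are called undetected, and 1370 were detected on only 1 or 2 arrays. The edge was not sharp, since 172 detected genes had a lowest score of at most 0.96 and 164 genes missed the threshold with a score above 0.94. The median intensity was 65.9 over all genes, 181.7 over detected genes and 43.8 over undetected genes. An intensity depends on the probe as well as on the mRNA, so an order of genes by intensity is an order of probe signals and not of mRNA amounts. With 1 group described, there was no contrast to test, and the error given is the spread over the 3 arrays.

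The line's label was set against markers first. Among 17 measured genes known as markers of clear cell carcinoma, 14 were detected and 11 were at 2 times the detection level or more, against 60.4% and 40.2% of all genes. SPP1, which encodes the secreted adhesive protein osteopontin, had an intensity of 24863, 25170.5 and 25350.0. GPX3, a secreted glutathione peroxidase, was at 759.8, 545 and 741, and replicate 2 was the low array. TFPI2, a secreted serine protease inhibitor used as a serum marker of this tumour, was at 377, 440.1 and 354. These genes were far above the detection level on every array. Several defining markers were weak: GLRX, a glutaredoxin, was at 138, 138 and 132. NAPSA, the gene of napsin A, was at 110.2, 91.2 and 105. ANXA4, encoding annexin A4, was at 86.0, 89.6 and 93.4, and AMACR, a racemase of branched-chain fatty acids, was at 63.3, 64.7 and 72.3. Annexin A4 and AMACR were thus detected at under 2 times the detection level, and napsin A straddled that line. Of the other list members, ABCF2, DPP4, FXYD2, ARG2, RBPMS and SOD2 were at 2 times or more, STC2 was near the detection level, and IGFBP1, LEFTY1 and CRYAB were undetected.

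The receptors that clear cell carcinomas usually lack were not detected. ESR1, the oestrogen receptor alpha, was at 40.8, 41.5 and 40.5, and PGR, the progesterone receptor, was at 44.6, 42.3 and 41.9. TFF1, an oestrogen-induced secreted peptide, was at 43.9, 42.7 and 46.8. All 3 genes lay below the detection level on each array. WT1, a transcription factor of serous carcinoma and mesothelium, was detected on all 3 arrays, but at 52.4, 54.0 and 55.6, just above the detection level. Other genes associated with serous carcinoma were bright: MUC16, which encodes the CA125 antigen, was at 2603, 2819 and 2449, and MSLN, encoding mesothelin, was at 2505, 2338 and 2528. Of 10 genes on the serous and hormone receptor list, 7 were detected and 5 were at 2 times the detection level or more. These shares were near the 60.4% and 40.2% of all genes. Bright members of the list numbered 3, with a highest mean intensity of 3343. When every probe of a gene was required, 3 genes were detected.

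Müllerian patterning genes were present in part. PAX8, a paired-box transcription factor, was at 1336, 1363 and 1315, and its other probe averaged 1132. SOX17, a transcription factor of endoderm and of the Müllerian tract, was at 615, 719 and 635. WNT7A, a ligand made by the epithelium of the developing tract, was at 874, 978 and 869.8. The groups of values were tight and none came near the detection level. MSX1, OVGP1, FOXJ1, MEIS1, LHX1 and PAX2 were also detected, which made 9 of 12 (75%, against 60.4% of all genes). Of the 12, 5 reached 2 times the detection level (41.7%, near the 40.2% of all genes). The list median was 62.7, against 65.9 over all genes. FOXJ1, MEIS1, LHX1 and PAX2 were under 2 times the detection level. EMX2 was detected on some arrays only, and WNT4 and WNT9B were undetected.

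**Figure D1:**
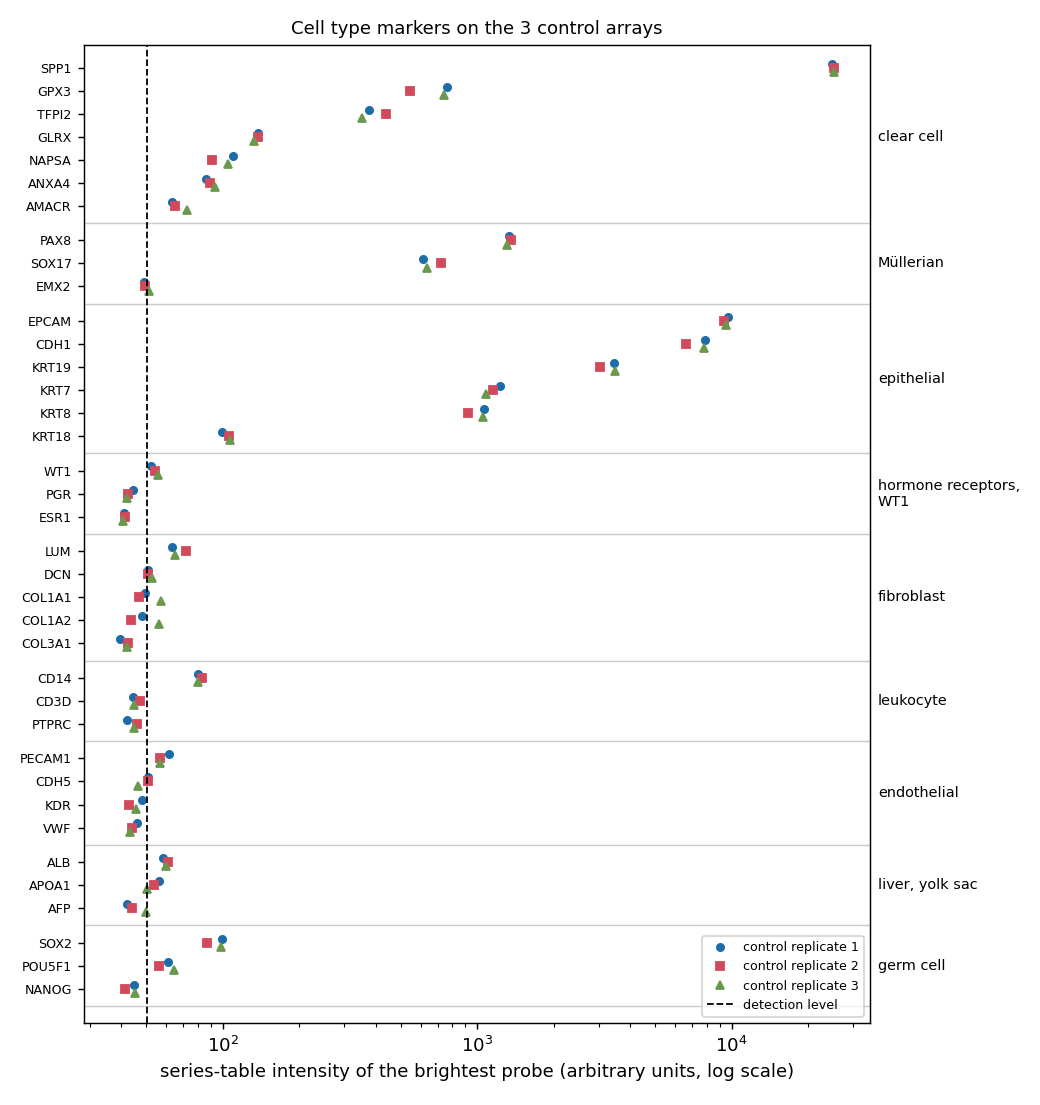
Intensity of the brightest probe of each cell type marker on a log axis, with a symbol for each of the 3 control arrays and a dashed line at the detection level of 50.5. SPP1, PAX8, SOX17, EPCAM, CDH1, KRT7, KRT8 and KRT19 lie far to the right of the line, whereas most markers of fibroblasts, leukocytes, endothelium, liver and germ cells lie near it or left of it.

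The 25 genes with the brightest probes ranged in mean intensity from 13783 to 26740. EEF1A1, the translation elongation factor, was at 26739.9 on all 3 arrays, which is the ceiling of the distribution onto which the authors mapped every array. Ribosomal protein genes made up 9 of the 25 and 30 of the 100 brightest genes. Over all 78 measured ribosomal protein genes, 74 were detected, 63 were bright and the median intensity was 4909, against 65.9 over all genes. The others with a familiar role in the tumour or in growth were SPP1, MMP7, GSTP1, HSP90B1 and ACTG1. MMP7, a secreted matrix metalloproteinase of epithelial cells known as matrilysin, was at 19844, 19746 and 18398. SPP1 and MMP7 each had a second probe of similar brightness, at 20095 and 18364 on average. GSTP1, a glutathione transferase, was at 17419, 15823 and 17009, and HSP90B1, a chaperone of the endoplasmic reticulum, was at 15164, 14671 and 16076. GDF15, a secreted member of the TGF-beta superfamily induced by cell stress, followed below the 25 at 12887, 12399.6 and 12557.

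The promoters of SPP1, MMP7 and GDF15 are shown because these genes gave the most intense signals among secreted proteins on the lists. The sequences are the 120 bases before the annotated start in RefSeq on GRCh38.p14, read 5′ to 3′ on the strand of the gene. Capitals mark a TATA box core (TATAAA), an AP-1 element (TGANTCA) or a GC box (GGGCGG), each searched on both strands. The array files name no genome build, and the coordinates belong to RefSeq. The SPP1 stretch is chr4:87975594-87975713 on the plus strand, the MMP7 stretch is chr11:102530748-102530867 on the minus strand, and the GDF15 stretch is chr19:18386038-18386157 on the plus strand.
SPP1: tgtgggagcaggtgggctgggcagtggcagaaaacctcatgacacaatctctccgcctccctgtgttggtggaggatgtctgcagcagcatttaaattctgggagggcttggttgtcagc
MMP7: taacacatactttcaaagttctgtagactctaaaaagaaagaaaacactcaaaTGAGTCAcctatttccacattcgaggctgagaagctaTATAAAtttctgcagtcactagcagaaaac
GDF15: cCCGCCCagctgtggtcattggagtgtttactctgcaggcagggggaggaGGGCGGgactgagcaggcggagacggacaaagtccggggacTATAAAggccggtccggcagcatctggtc

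In the MMP7 promoter, TATAAA lay 30 to 25 bases and TGANTCA 67 to 61 bases before the start. The GDF15 promoter held TATAAA 29 to 24 bases before the start and a GC box at 119 to 114 and at 70 to 65 bases. In SPP1 none of the 3 motifs was spelled within 250 bases of the start. The shares of promoters with each motif are given as a description. Within 250 bases before the start, TATAAA was in the promoters of 5.30% of 2395 bright genes and 5.89% of 9307 detected genes. It was in 14.8% of 4536 undetected genes and 9.05% of 14873 measured genes with a promoter. The GC box was in 70.0% of bright and 65.4% of detected genes, against 37.1% of undetected and 55.5% of measured genes. TGANTCA was in 3.63% of bright and 3.96% of detected genes, against 7.50% of undetected and 5.20% of measured genes. All 27305 promoters in the table include genes not measured here. Their shares were 11.1% for TATAAA, 42.3% for the GC box and 6.60% for TGANTCA. A match is a description of letters, and no binding was measured.

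Some of the brightest genes rested on 1 probe. Of the 25, 16 had 2 or more probes, and in 9 of those the brightest was at least 8 times as bright as the second. LAIR1, an inhibitory receptor of leukocytes, was at 23763, 22164 and 23367, and its second probe averaged 55.5. CCR6, a chemokine receptor of lymphocytes, was at 13319, 14298 and 13731, with a second probe at 60.4. F2R, the thrombin receptor, was at 20198, 20702 and 20579.5, with a second probe at 299. For LAIR1 and CCR6 the second probe stood near the detection level, so the probes of the gene gave very different values. The same held for ITIH5, an inter-alpha-trypsin inhibitor chain, at 16657 ± 248 and 51.8, and for RPL41, a ribosomal protein, at 21849 ± 496 and 78.5 (SD, n = 3). The other 4 were SLC7A5P2, CLUAP1, FARSB and ORC6, whose brightest probes averaged 22429, 18963, 18884 and 14832. Their second probes averaged 138, 180.0, 115 and 387. Over all genes, 4395 detected genes had 2 or more probes, every probe was detected in 2056 of them, and the median ratio of the brightest to the second probe was 1.79. In 502 the ratio was at least 8, and 454 of these were among the 1175 bright genes with 2 or more probes. Of the 194 bright genes on the lists described here, 94 had 2 or more probes and 33 of those were 8-fold apart (35.1%). The rest, among them CDH1, GDF15, FASN and CCND1, had 1 probe, so agreement between probes could not be examined. The cause was not tested, and probe sequences were not used here. Where values of a gene with probes 8-fold apart are given, its second probe's mean stands beside them. A gene given without such a mean may have only 1 probe.

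**Figure D2:**
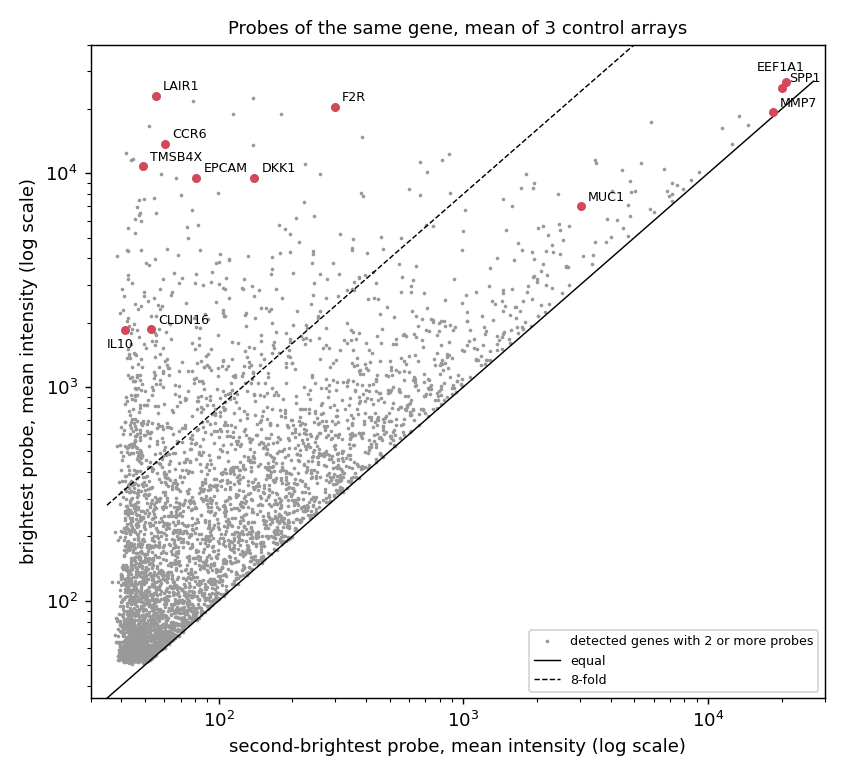
Mean intensity of the brightest probe against the second-brightest probe of each detected gene with 2 or more probes, both on log axes, with lines of equality and of an 8-fold ratio. SPP1, MMP7 and EEF1A1 lie near equality, whereas LAIR1, CCR6, IL10, CLDN16, EPCAM and DKK1 lie above the 8-fold line.

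Epithelial genes were well represented. Of 34 epithelial genes, 31 were detected (91.2%, against 60.4% of all genes) and 27 reached 2 times the detection level (79.4%, against 40.2%). The list median was 359.6, against 65.9 over all genes. CDH1, the adhesion molecule E-cadherin, was at 7895, 6594 and 7803, with replicate 2 the lowest. EPCAM, an epithelial surface adhesion molecule, was at 9699, 9339 and 9528 on its brightest probe and at 81.1 on the second. SPINT2, a membrane inhibitor of serine proteases, was at 7557, 7988 and 6942, and MUC1, a transmembrane mucin, was at 7113, 6880.1 and 7025 with a second probe at 3014. CLDN7, a tight junction claudin, was at 3312, 3172 and 3314. Desmosomal DSG2 and DSP and the epithelial serine protease PRSS8 were bright too. Regulators of epithelial identity were weaker: OVOL2 was at 538, 597 and 516, ELF3 at 334, 353 and 373 and GRHL2 at 116, 106 and 118. OVOL1, ESRP2 and OCLN were undetected.

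Among keratins, the intermediate filaments of epithelia, those of simple epithelium led. KRT19 was at 3451, 3034 and 3497, KRT7 at 1227, 1157 and 1086 and KRT8 at 1066, 922 and 1057. KRT18, the partner of KRT8 in filaments, was at only 99.6, 106 and 107. KRT10, a keratin of differentiating epidermis, was just bright at 517, 529 and 489. KRT5, KRT14, KRT1, KRT4 and KRT13, keratins of stratified epithelium, and KRT20, of intestinal epithelium, were undetected. Of 15 measured keratins, 8 were detected (53.3%, against 60.4% of all genes) and 7 reached 2 times the detection level (46.7%, against 40.2%).

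Mesenchymal genes were divided. CDH2, the adhesion molecule N-cadherin, was at 1641, 1328 and 1664, and VIM, the intermediate filament vimentin, was at 1648, 1269.8 and 1559, so both cadherins and vimentin were bright in the same cultures. S100A4, a calcium-binding protein, was at 695, 507 and 722, and TAGLN, an actin-binding protein, was at 583, 654 and 622. The transcription factors that repress E-cadherin, ZEB1, ZEB2, SNAI1 and SNAI2, were undetected, as were TWIST2, PRRX1 and SPARC. ZEB1 was at 44.6, 41.0 and 43.9 and SNAI2 at 48.6, 46.4 and 48.1. FN1, fibronectin, was detected at 52.6, 59.3 and 56.1, near the detection level. In all, 10 of 18 mesenchymal genes were detected (55.6%, near the 60.4% of all genes). Of the 18, 5 reached 2 times the detection level (27.8%, against 40.2%). Bulk RNA cannot tell 1 cell state with both kinds of gene from a mixture of states, nor fewer cells from less RNA per cell.

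Markers of other cell types that a culture could hold were mostly undetected or weak. Of 12 endothelial markers 4 were detected, of 12 fibroblast markers 3 and of 17 leukocyte markers 5. These shares were 33.3%, 25% and 29.4%, against 60.4% of all genes. Only 1 of these 41 genes, CD68, reached 2 times the detection level, against 40.2% of all genes. CD68, a lysosomal protein of macrophages that other cells also make, was at 366, 387 and 305. PTPRC, the common leukocyte antigen CD45, was at 42.2, 45.9 and 44.8, VWF, the clotting factor of endothelium, at 45.9, 44.0 and 43.4 and COL3A1, a collagen of fibroblasts, at 39.5, 42.3 and 42.0. These 3 defining markers were undetected on all arrays. Others were detected on all 3 arrays at under 2 times the detection level. CD14, a leukocyte marker, was at 80.1, 83.3 and 80.3, and DCN, of fibroblasts, was at 51.1, 51.0 and 52.9. The leukocyte genes FCGR3A and CD79A were likewise detected on all 3 arrays at under that level. So were the endothelial genes EGFL7, ERG and ESAM, with mean intensities of 96.7, 69.0 and 53.5. COL1A1, COL1A2 and CDH5 were detected on 1 array each. CD3D, CD2, CD4, ITGAM, LYZ, KDR, CLDN5, TIE1, FAP, THY1 and PDGFRB were undetected as well. Genes of red cells, muscle and endocrine tissues gave 1 detection in 23 (4.35%, against 60.4% of all genes). It was ACTA1, the skeletal muscle actin, at 71.1, 77.8 and 76.9.

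Genes of other organs were mostly undetected or weak. Of 33 hepatic and yolk sac genes, 13 were detected (39.4%, against 60.4% of all genes). The 4 that reached 2 times the detection level (12.1%, against 40.2%) were SOX17, FOXA2, SERPINA1 and FGA. AFP, alpha-fetoprotein, was undetected at 42.2, 44.1 and 49.8, and so were APOB, AHSG, TF, GATA4 and GATA6. The liver markers ALB and APOA1 were detected on all 3 arrays, near the detection level. ALB was at 58.4, 60.75 and 59.7, and APOA1 was at 56.2, 53.7 and 50.4. SERPINA1, the inhibitor alpha-1 antitrypsin, was at 317, 296 and 334. FOXA2, a pioneer transcription factor of endoderm, was at 496, 498 and 477, but its second probe averaged 44.6. None of 14 intestinal and mucinous genes, 15 germ cell and pluripotency genes or 14 neuroendocrine and neural genes reached 2 times the detection level. Among all genes, 40.2% reached it. In that order, the lists had 4, 5 and 5 detected genes (28.6%, 33.3% and 35.7%, against 60.4% of all genes). NANOG, DDX4, SALL4 and LIN28A were undetected, and SOX2 was near the detection level at 99.4, 87.0 and 98.3. Among 18 kidney tubule genes 9 were detected (50%, against 60.4% of all genes). The brightest was CLDN16, a claudin of the renal tubule, at 1918, 1759 and 1926, with a second probe at 52.9. CDH16, the kidney-specific cadherin, was at 76.2, 65.4 and 69.0. Of 15 sex cord and steroidogenic genes 2 were detected (13.3%, against 60.4% of all genes). AMH, anti-Müllerian hormone, was at 106, 106 and 102 and CYP11A1 at 68.1, 66.8 and 60.6. NR5A1, FOXL2, STAR and CYP17A1 were undetected. Among 10 mesothelial genes 6 were detected (60%, near the 60.4% of all genes). Only MSLN and LRRN4 were at 2 times the detection level or more (20%, against 40.2%).

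**Figure D3:**
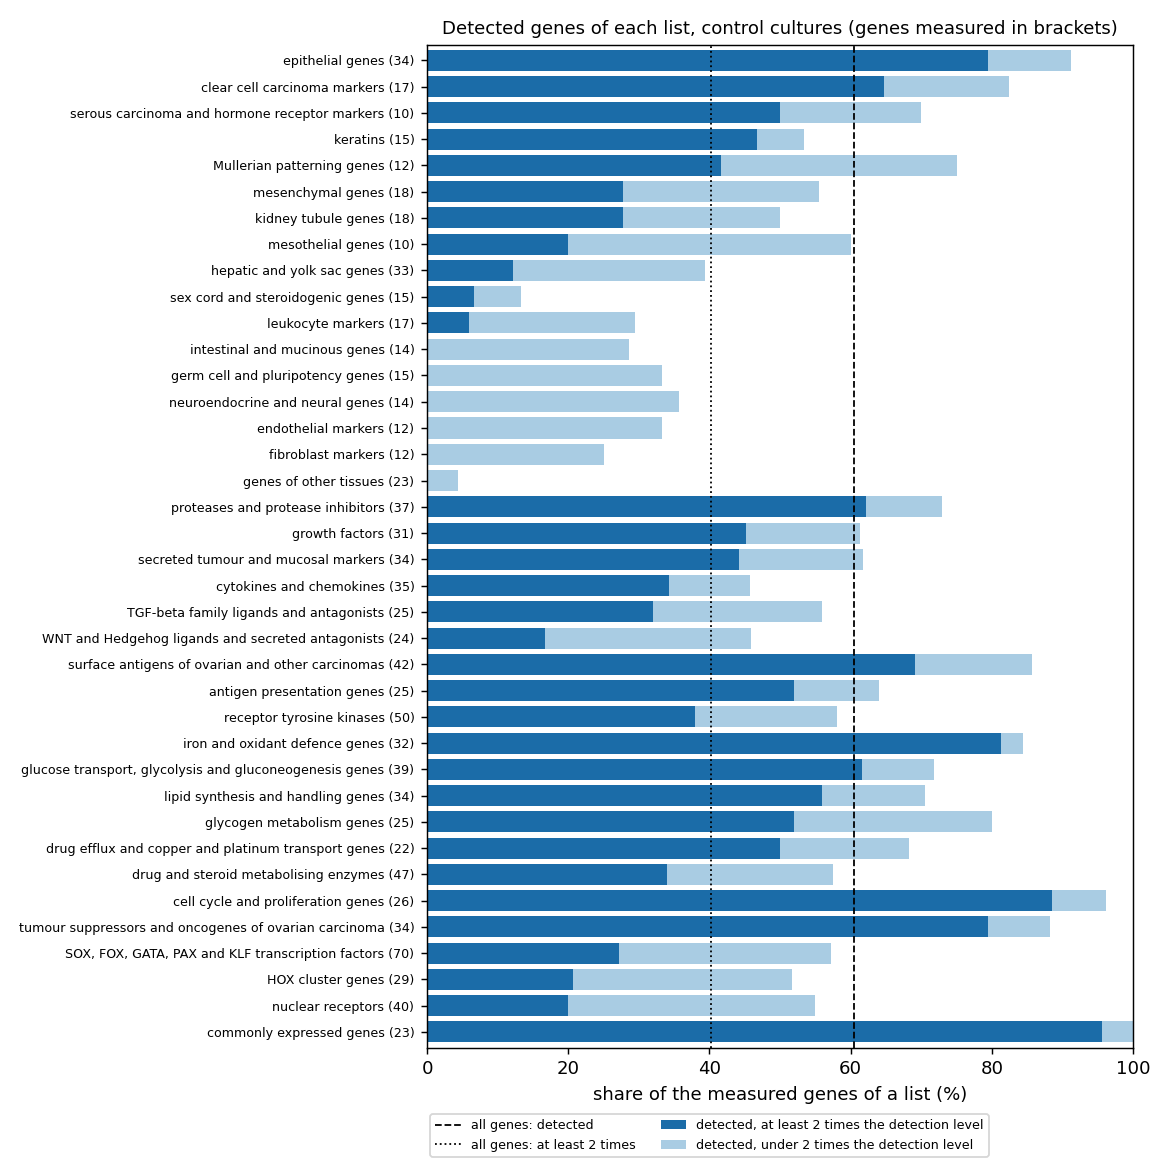
Share of the measured genes of each list that were detected, in percent, split into genes at 2 times the detection level or more (dark) and under it (light), with the number measured in brackets. Vertical lines mark the shares over all genes, 60.4% and 40.2%. Epithelial, cell cycle, oxidant defence and commonly expressed genes extend past both lines, and endothelial, fibroblast and leukocyte markers fall short of both.

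Among secreted factors, cytokines were detected in part. Of 35 cytokines and chemokines, 16 were detected and 12 were at 2 times the detection level or more (45.7% and 34.3%, against 60.4% and 40.2% of all genes), with a median of 50.8, against 65.9 over all genes. IL18, a cytokine of the interleukin-1 family stored in epithelial cells, was at 8841, 9423 and 9222. MIF, a widely expressed cytokine, was at 4112, 4092 and 4359.9, and LIF, of the interleukin-6 family, was at 459.7, 529 and 431. IL6 was at 311, 436 and 337 and CXCL8, a neutrophil chemokine, at 265, 424 and 345, and both were highest in replicate 2. IL10, a cytokine of leukocytes, was at 1862, 1943 and 1749, but its second probe averaged 41.4. CXCL16, a transmembrane chemokine, was at 1387, 1337 and 1419.7, with a second probe at 54.8. IL1B, IL11, CSF3, CXCL12, CXCL5, CCL5 and TNFSF10 were undetected.

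Among growth factors of the EGF, FGF, VEGF, PDGF, HGF and IGF families, 19 of 31 were detected (61.3%, near the 60.4% of all genes). Those at 2 times the detection level or more numbered 14 (45.2%, against 40.2%). MDK, the heparin-binding factor midkine, was counted on this list although it belongs to none of these families. It was at 2659.9, 2209.8 and 2540.0 with a second probe at 73.8. VEGFB was at 1528, 1570.3 and 1509 and its second probe at 134, and FGF18 was at 1513, 1439 and 1638 with a second probe at 59.6. TGFA, a ligand of the EGF receptor, was at 776, 770.4 and 733, and its second probe also stood far above the detection level, at 398. VEGFA, the main angiogenic factor, was at 216, 196 and 206. HGF, IGF2, VEGFC, PGF and FGF7 were undetected. The ligand TGFA was thus present together with its receptor, described below, while HGF was undetected and its receptor MET was weak.

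Among TGF-beta family ligands and antagonists, 14 of 25 were detected (56%, near the 60.4% of all genes), and GDF15 was the only bright one. BMP7, a bone morphogenetic protein, was at 513, 418 and 502, and INHBB, an activin subunit, was at 196, 156 and 190.1. TGFB1, TGFB2, INHBA, BMP4, NODAL and LEFTY2 were undetected. Of 24 WNT and Hedgehog ligands and antagonists 11 were detected (45.8%, against 60.4% of all genes). DKK1, a secreted inhibitor of WNT signalling, was at 9769, 9222 and 9659.7, with a second probe at 140.0, far lower but above 2 times the detection level. Next to it only WNT7A, WNT7B and WNT3 reached that level. WNT7B was at 179, 170.5 and 186 and WNT3 at 115, 116 and 123. SFRP2, WIF1, DKK2 and DKK4, further WNT antagonists, and IHH were undetected.

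Of 34 secreted tumour and mucosal markers, 21 were detected (61.8%, near the 60.4% of all genes). Of the 34, 15 reached 2 times the detection level (44.1%, against 40.2%). SLPI, a mucosal protease inhibitor, was at 3720.1, 2971 and 3571. LCN2, the iron-siderophore-binding lipocalin, was at 2056, 1804 and 1914, and LGALS3BP, a galectin-binding glycoprotein, was at 1924, 1813 and 1819. NMU, the peptide neuromedin U, was at 762, 864 and 763. PTGS2, the inducible cyclooxygenase, which is not itself secreted but makes prostaglandins, was at 1564, 1967 and 1452. KLK6, a kallikrein protease, was at 1660.3, 1580.0 and 1669, although its second probe averaged 55.7, and the kallikreins KLK7 and KLK10 lay just above 2 times the detection level. The trefoil peptides TFF1, TFF2 and TFF3, the carcinoembryonic genes CEACAM5 and CEACAM6, AGR2, CHI3L1 and CLU were undetected.

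Of 37 proteases and protease inhibitors, 27 were detected (73.0%, against 60.4% of all genes) and 23 were at 2 times the detection level or more (62.2%, against 40.2%). Besides MMP7, PLAU, the urokinase plasminogen activator, was at 3303, 3332 and 3459, and its receptor PLAUR was at 311, 366 and 312. CTSB, the lysosomal protease cathepsin B, was at 3099, 3017 and 3449. TIMP1, an inhibitor of metalloproteinases, was at 3382, 2829 and 3129, and TIMP2 at 2539.8, 2229 and 2176 with a second probe at 164. The metalloproteinases differed sharply: MMP9 and MMP14 were undetected, MMP1, MMP2 and MMP3 were near the detection level and MMP10 was at 195, 163 and 190.3. PLAT, the tissue plasminogen activator, was undetected at 44.5, 41.2 and 45.7.

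Surface antigens used as tumour targets were detected in 36 of 42 cases (85.7%, against 60.4% of all genes). Of the 42, 29 reached 2 times the detection level (69.0%, against 40.2%). The list median was 324.6. The tetraspanins CD81 and CD151 were at 9464, 9272 and 8738 and at 8176, 8229 and 7948, and the second probe of CD151 averaged 886. TFRC, the transferrin receptor, was at 8406, 8504 and 8308, and CD24, a small anchored glycoprotein, at 5403, 5864 and 5731 with a second probe at 756. CD44, a hyaluronan receptor, was at 2751, 2804 and 2758 with a second probe at 557. The B7 family members CD276 and VTCN1 were at 666, 653 and 635 and at 632, 542 and 568. The other probes of CD276 averaged 86.4, 59.8 and 58.2, under 2 times the detection level. FOLR1, the folate receptor alpha that is prominent in serous carcinoma, was at 286, 202 and 264, with replicate 2 the lowest and a second probe at 239. The immune checkpoint ligands CD274 and PDCD1LG2 were undetected, at 43.5, 43.3 and 42.3 and at 34.8, 36.2 and 33.4. CLDN6, MCAM and CEACAM5 were undetected as well.

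Receptor tyrosine kinases pass growth factor signals into the cell. Of 50 measured, 29 were detected (58%, near the 60.4% of all genes) and 19 reached 2 times the detection level (38%, near 40.2%). In the EGF receptor family, ERBB2 was at 2481, 2252 and 2457 with a second probe at 58.8, and ERBB3 at 1027, 832 and 1004 with a second probe at 131. EGFR was at 266, 246 and 278 and ERBB4 at 84.2, 81.3 and 73.4. The other probes of EGFR averaged 93.3, 51.0 and 43.6. All members of this family were therefore detected, although the probes of ERBB2, ERBB3 and EGFR gave different values. Among the TAM receptors, which bind GAS6, MERTK was at 1146, 1233 and 1243 with a second probe at 508, and AXL was at 466, 439.5 and 467. Their ligand GAS6 was at 317, 291 and 332. EPHA1, EPHA2 and EPHB4, receptors for ephrins, were at 1369.9, 1238 and 1375, at 957, 905 and 962 and at 1055, 968 and 987. MET was at 152, 138 and 144, and MST1R, the receptor of the MET family that binds MST1, was at 496, 503 and 514. FGFR3 was at 706, 618 and 737 with a second probe at 43.8, and FGFR4 at 349, 347 and 324. The VEGF receptors FLT1, KDR and FLT4 and the receptors PDGFRB, CSF1R and DDR2 were undetected. IGF1R, the insulin-like growth factor receptor, was near the detection level at 57.6, 56.3 and 53.4.

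**Figure D4:**
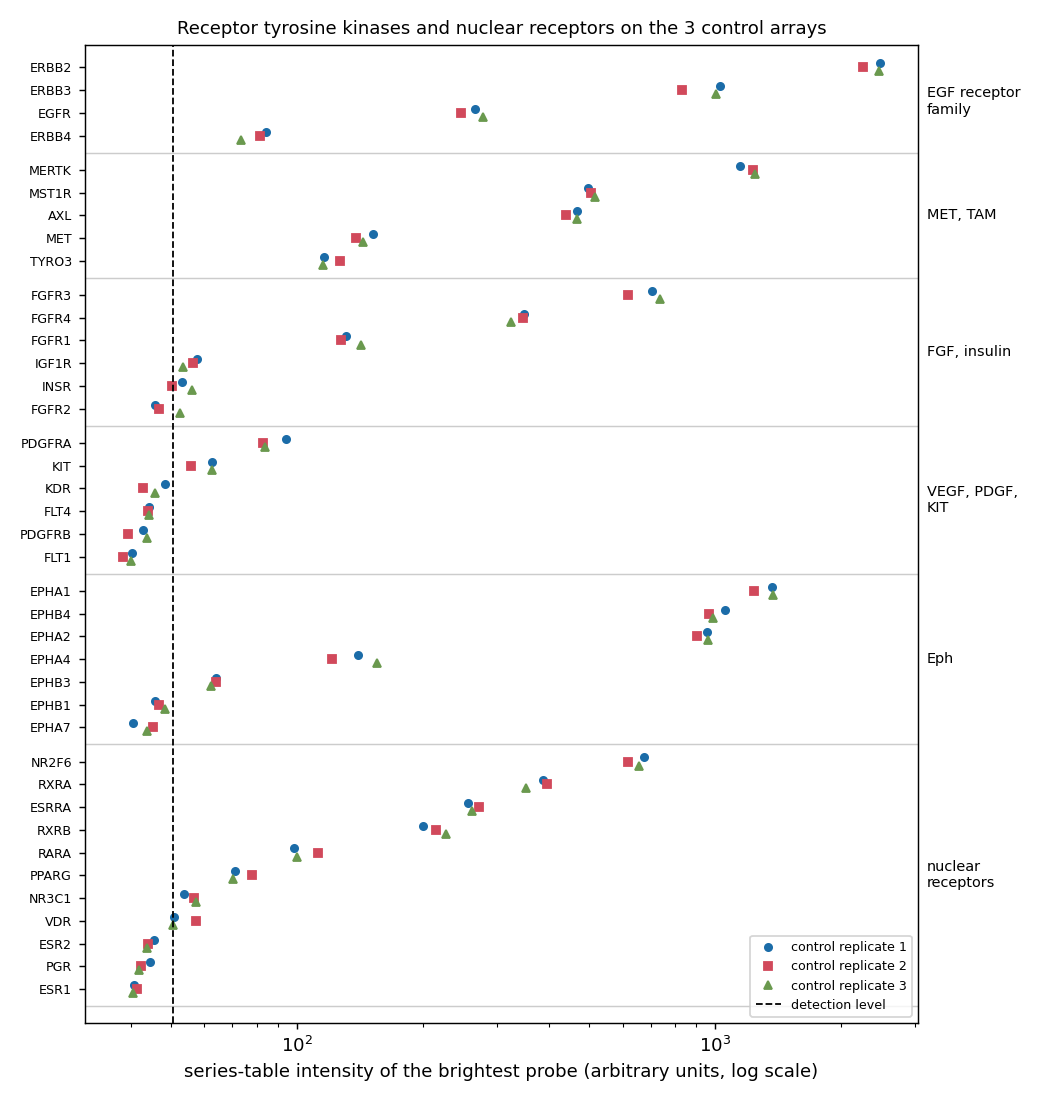
Intensity of the brightest probe of receptor tyrosine kinases and nuclear receptors on a log axis, with a symbol for each of the 3 control arrays and a dashed line at the detection level of 50.5. ERBB2, EPHA1 and MERTK lie farthest to the right, whereas the VEGF receptors, ESR1, ESR2 and PGR lie left of the line.

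Antigen presentation genes were unevenly represented, with 16 of 25 detected (64%, near the 60.4% of all genes). Of the 25, 13 reached 2 times the detection level (52%, against 40.2%). TAP1, a peptide transporter, was at 1526, 1449 and 1478, and B2M, the light chain of class I molecules, averaged 939 ± 49.4 (SD, n = 3). HLA-B was at 82.1, 82.9 and 83.7, near the detection level, and HLA-C was detected on some arrays only. These genes are highly polymorphic, and how well their probes match the alleles of this line was not tested. Of class II, HLA-DMA and HLA-DMB, which load peptides, were at 267, 209.6 and 280.2 and at 1127, 937 and 1187, while HLA-DRA, HLA-DPA1, HLA-DPB1 and the class II transactivator CIITA were undetected. PSMB9, an interferon-induced proteasome subunit, was undetected at 40.5, 49.5 and 41.3, and PSMB10 was at 1072, 1051 and 997.

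Genes of glycogen metabolism were present at moderate signal. Of 25 measured, 20 were detected (80%, against 60.4% of all genes) and 13 reached 2 times the detection level (52%, against 40.2%). Bright members numbered 3, and the list median was 136.3, against 65.9 over all genes. For synthesis, UGP2, which makes UDP-glucose, was at 526, 568 and 553 with a second probe at 96.0, and GYG1, the glycogenin primer, was at 428, 455 and 453. GYS1, the glycogen synthase of most tissues, was at 138, 135 and 135, and GBE1, the branching enzyme, at 225, 207 and 229.9. For breakdown, PYGL and PYGB, the liver and brain phosphorylases, were at 624, 581 and 605 and at 288, 283 and 301. PHKA2, a subunit of phosphorylase kinase, was at 943, 1039.7 and 976. The liver synthase GYS2, the muscle phosphorylase PYGM and the targeting subunit PPP1R3C were undetected. Both synthesis and breakdown were thus represented, through GYS1, PYGL and PYGB.

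Glucose use was represented by 28 detected genes of 39 (71.8%, against 60.4% of all genes). Of the 39, 24 reached 2 times the detection level (61.5%, against 40.2%) and 15 were bright. SLC2A1, the glucose transporter GLUT1, was at 8192, 7166 and 8408, and SLC2A3 was at 502, 461 and 469. ENO1, the enolase of most cells, was at 7902, 7879 and 8438, and LDHA, the lactate dehydrogenase subunit, at 5821, 6231 and 6038. HK1, a hexokinase, was at 1331, 1229.6 and 1246 with a second probe at 61.4, and HK2 was at 119, 129.9 and 115. Of the enzymes of glucose output in liver, G6PC1 and FBP1 were undetected, at 42.4, 44.6 and 47.1 and at 42.3, 49.4 and 40.9, and PCK1 was detected on some arrays only. G6PC3, a glucose-6-phosphatase of most tissues, was at 286, 241 and 238. The mitochondrial form PCK2 was at 382, 301 and 357. The transporters SLC2A2, SLC2A4 and SLC5A1 were undetected.

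Some enzymes of fatty acid synthesis were bright. FASN, fatty acid synthase, was at 12485, 12620.5 and 11687. ACLY, which makes cytosolic acetyl-CoA, was at 1568, 1616 and 1559.6, and ACACA, acetyl-CoA carboxylase, was bright as well. SCD, a desaturase, was at 2708, 2533 and 2827. Others were weaker: ELOVL5, ELOVL1 and FADS1 averaged 298, 228 and 201, and ACACB, the paralogue of ACACA, averaged 68.6. ELOVL6, FADS2 and DGAT2 were undetected. Of the genes that take up or store fat, CD36, LPL, FABP4, FABP1, PLIN1 and PLIN2 were undetected, and PLIN3, a coat protein of lipid droplets, was at 1227, 1295 and 1281. FABP5, a fatty acid carrier, was at 469, 516 and 439 with a second probe at 46.7, and DGAT1, an enzyme of triglyceride synthesis, was at 402, 405 and 413. Over the list, 24 of 34 genes were detected (70.6%, against 60.4% of all genes). Of the 34, 19 reached 2 times the detection level (55.9%, against 40.2%).

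Oxidant defence and iron genes were detected in 27 of 32 cases (84.4%, against 60.4% of all genes). Of the 32, 26 reached 2 times the detection level (81.25%, against 40.2%), and the list median was 504.9. FTL, the ferritin light chain, was at 8954, 8961 and 9023, TXN, thioredoxin, at 8016, 8736 and 8176 and PRDX1, a peroxiredoxin, at 8303, 8396 and 8229. SOD2, the mitochondrial superoxide dismutase, was at 548, 506 and 524 and SLC7A11, the cystine transporter, at 304, 285 and 326. SLC40A1, the iron exporter ferroportin, was undetected at 43.9, 40.5 and 43.9, and so were HAMP, HEPH, SOD3 and TF. The importer TFRC was thus bright while the exporter was undetected.

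Of 47 drug and steroid metabolising enzymes, 27 were detected (57.4%, near the 60.4% of all genes). Of the 47, 16 reached 2 times the detection level (34.0%, against 40.2%). The retinaldehyde dehydrogenases ALDH1A3 and ALDH1A1 were at 3936, 4347 and 4106 and at 1739, 1517 and 1809.8. For ALDH1A3 the second probe was also bright, at 3382, and for ALDH1A1 it averaged 256. NQO1, a quinone reductase, was at 1389.6, 1461 and 1404 with a second probe at 46.0. CYP3A4, CYP24A1, AKR1C1, AKR1C2, GSTA1 and HSD17B2 were undetected, and CYP19A1, aromatase, was detected on some arrays only. Among 22 efflux and metal transport genes, 15 were detected (68.2%, against 60.4% of all genes). ATOX1, a copper chaperone, was at 4566, 4741 and 4935, and ABCC5 and ABCC4, efflux pumps, were at 1266, 1318 and 1326 and at 1094, 862 and 1009. SLC31A1, a copper importer that also takes up platinum drugs, was at 373, 331 and 331. ABCB1 and ABCG2, efflux pumps known for multidrug resistance, were undetected, at 48.3, 46.0 and 46.9 and at 46.4, 47.0 and 41.4.

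Among 70 transcription factors of the SOX, FOX, GATA, PAX and KLF families, 40 were detected (57.1%, near the 60.4% of all genes). Of the 70, 19 reached 2 times the detection level (27.1%, against 40.2%) and 6 were bright. FOXQ1, a forkhead factor, was at 3039, 2966 and 3286, and KLF6, a zinc-finger factor, was at 1887, 1983 and 1785. FOXO3 was at 1059.8, 1110.2 and 1006 with a second probe at 324, and SOX4 was at 558, 517 and 568. PAX8 and SOX17 were the other bright members. GATA1, GATA4, GATA5 and GATA6 were undetected, GATA3 was near the detection level at 55.1, 53.2 and 51.7 and GATA2 was at 109, 116 and 112. SOX9 was detected on some arrays only, and SOX10, SOX11 and FOXL2 were undetected.

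HOX cluster genes set position along the body axis. Of 29 measured, 15 were detected (51.7%, against 60.4% of all genes), 6 were at 2 times the detection level or more (20.7%, against 40.2%) and none was bright, with a median of 54.8, against 65.9 over all genes. The brightest, HOXD1, HOXB6 and HOXB7, were at 213, 207 and 222, at 202, 216 and 205 and at 191, 202 and 203. Another 10 HOX genes were not analysed here.

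Nuclear receptors are transcription factors, many of which bind hormones or lipids. Of 40 measured, 22 were detected (55%, near the 60.4% of all genes) and 8 were at 2 times the detection level or more (20%, against 40.2%). NR2F6, an orphan receptor, was at 677, 618 and 658 and was the only bright one. RXRA, the partner of many other receptors, was at 386, 396 and 352. NR3C1, the glucocorticoid receptor, was at 53.7, 56.8 and 57.3, and VDR, the vitamin D receptor, was at 50.8, 57.4 and 50.6, both near the detection level. ESR2, the oestrogen receptor beta, was undetected at 45.4, 44.0 and 43.8, as were NR5A1, NR0B2 and NR4A1.

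Of 34 tumour suppressors and oncogenes, 30 were detected (88.2%, against 60.4% of all genes). Of the 34, 27 reached 2 times the detection level (79.4%, against 40.2%), and 11 further genes of the list were not analysed here. CCND1, the cyclin of early G1 phase, was at 7896, 8349 and 8009, and its paralogue CCND2 was undetected at 50.3, 49.0 and 49.0. MYC, a growth-promoting transcription factor, was at 2431, 2879 and 2476 with a second probe at 449.9. CCNE1, the cyclin of S phase entry, was at 1692, 2125 and 1905, with a second probe at 81.0. CDKN1A, the p21 inhibitor of cyclin-dependent kinases, was at 4398, 4313 and 4449, with a second probe at 83.9. ARID1A, a chromatin remodelling subunit that is often mutated in clear cell carcinoma, was at 968, 941 and 1049.5 on its brightest probe and averaged 45.8 on the second. ARID1B, its paralogue, was undetected at 50.7, 46.2 and 46.3. SMARCA4, a catalytic subunit of the same complexes, was at 1850.1, 1747 and 1941. CDKN2A, encoding the inhibitor p16, was at 287, 269 and 283. An mRNA signal does not show whether a gene is mutated, and no sequence was read.

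Cell cycle genes were nearly all present, with 25 of 26 detected (96.2%, against 60.4% of all genes), 18 of them bright, and a median of 713.1. MCM4, a subunit of the replicative helicase, was at 5368, 5695 and 5167, and its second probe averaged 1501. CDC20, an activator of the anaphase-promoting complex, was at 4656, 5432 and 5058, and TOP2A, the topoisomerase of chromosome segregation, was at 2214, 2037 and 1985. MKI67, the proliferation antigen, was near the detection level at 82.9, 74.9 and 82.6, and E2F1 was undetected at 47.5, 45.5 and 42.0.

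The 3 cultures were close to each other. Over 5345 detected genes at 4 times the detection level or more, the median range between the highest and the lowest array was 0.11 on the log2 scale, which is 1.08-fold, and the median coefficient of variation was 4.13%. Only 3 genes ranged over more than 1.5-fold and 0 over more than 2-fold. H3-3B, a histone H3 variant, was at 294, 503 and 268. RPL7A, a ribosomal protein, was at 396, 242 and 421, and CXCL8 was at the values given above. Replicate 2 stood apart for H3-3B and RPL7A, and for CXCL8 the 3 arrays were spread evenly, with replicate 2 the highest.

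Replicate 2 was the highest or the lowest array for all 15 genes with the widest ranges, the highest for 7 and the lowest for 8. Among those it was high for were EGR1, an immediate early transcription factor, at 668, 964 and 662, and the small nucleolar RNAs SNORD14C, SNORD100 and SNORD35A. Among those it was low for were FOLR1 and S100A4, given above, and SCGB2A1, a secretoglobin, at 1134, 867 and 1233. IFITM1, an interferon-induced membrane protein, was at 291, 201 and 293, ACTA2, smooth muscle actin, at 500.1, 393 and 563, CLK1, a splicing kinase, at 1569, 1068 and 1534 with a second probe at 89.1, and the small nucleolar RNA SNORD13 at 1107, 804 and 1189. Over the 5345 genes the SD of the log2 difference was 0.120 between replicates 1 and 2 and 0.125 between replicates 2 and 3, against 0.0861 between replicates 1 and 3. Replicate 2 was the lowest array for 4 of 5 mesenchymal genes, 15 of 22 epithelial genes, 6 of 10 growth factors and 10 of 14 receptor tyrosine kinases at this level, against 2021 of all 5345 genes (37.8%), and it was the highest for 6 of 8 cytokines and 12 of 21 cell cycle genes, against 2046 of all 5345 (38.3%). The median log2 difference of replicate 2 from the mean of the other replicates was −0.34 for the mesenchymal genes, −0.11 for the growth factors, −0.091 for the receptor tyrosine kinases and −0.040 for the epithelial genes. It was 0.084 for the cytokines and 0.054 for the cell cycle genes, against 0.0006 over all genes. Lists of other kinds were shifted as well. Replicate 2 was the lowest for 7 of 10 antigen presentation genes (−0.085) and 6 of 10 glycogen genes (−0.067). It was the highest for 4 of 5 Müllerian patterning genes. Over all lists with at least 5 genes at this level the difference ran from −0.34 for the mesenchymal genes to 0.087 for the Müllerian patterning genes. Replicate 2 had a median of 35 beads per probe, against 41 and 40 on the other arrays, and its part in these differences was not tested.

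**Figure D5:**
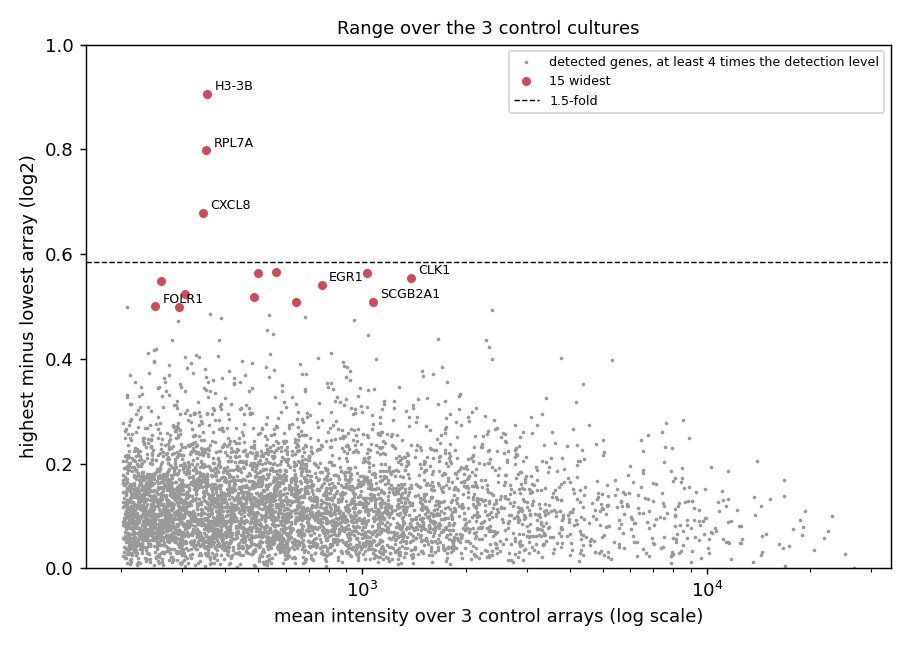
Difference between the highest and the lowest of the 3 control arrays (log2 scale) against mean intensity (log axis) for 5345 detected genes at 4 times the detection level or more. The 15 widest genes are marked, and H3-3B, RPL7A and CXCL8 are the 3 that lie above the dashed line at 1.5-fold.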

How the data were processed

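The deposited array tables gave, per probe, a mean bead signal (an intensity on a linear scale), a detection score (a fraction from 0 to 1), a count of beads and the bead standard deviation (an intensity), made with BeadStudio per the submitters' processing notes, which name no version. The deposited series table, used for all values here, holds intensities of the same probes. Its columns show that the authors mapped each array to the values of control replicate 1, and the sources used here do not say how.

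Because identifiers differed, the tables were joined by each probe's rank on all 6 arrays, the one use made of the inhibitor arrays. After the join 90.3% of 28097 neighbouring named probes were in alphabetic order of symbol, against 50.5% in the order of the series table. The platform annotation gave 28098 probes 1 symbol, 13 several and 20692 none here. RefSeq (GRCh38.p14) held 28059 of the named ones, and 0 symbols were updated. The brightest detected probe stood for a gene. The members and the 38 gene lists, with 949 of 1047 genes measured, were chosen with earlier results of these data known, and the bands at 2 and 10 times the detection level after values were seen. Genes not analysed here are left out of the counts. The rule for named genes took the 25 brightest genes, the 5 brightest detected and the undetected members of each list, cell type markers and the 15 widest ranges. Not all of these are named, and other list members were named with their values known.

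No group was compared, so no test was made. Alternatives covered the detection threshold, the probe rule, each replicate left out, the deposited signals without normalization and limma's neqc with an offset of 16 (limma 3.58.1 in R 4.3.3). The matching by rank was tested on a shuffled and distorted copy of the data, and the detection threshold on simulated signals. The counting of genes and list members was not tested in this way. The precision is limited by the number of arrays and of beads (median 41, 35 and 40 per probe). The median standard error over beads was 3.43%, 3.60% and 3.62% of the signal of detected probes. Figures were drawn with matplotlib 3.10.9.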

Additional observations from a re-analysis of the deposited data

How the results depend on the processing

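The count of 11384 detected genes stayed within 1.5 times under a score above 0.99, 2 of 3 arrays, all probes of a gene (9045), the second-brightest probe (9821), RefSeq-matched probes and each replicate left out (11501 to 11644), and fell to 7584 when 2 times the detection level was also asked for. With every probe of a gene required, detected members numbered 3 serous, 4 kidney, 2 germ cell, 2 mesothelial, 1 neuroendocrine, 1 leukocyte, 0 fibroblast, 10 growth factor, 16 receptor tyrosine kinase, 10 nuclear receptor and 19 tumour suppressor and oncogene genes, since this setting removes genes by construction. A score above 0.99 left 0 intestinal genes, and 2 of 3 arrays gave 5 fibroblast genes and 2 of other tissues, a list that had 1 or 2 with a replicate left out. Of the 25 brightest genes, 14 were shared with the mean over a gene's detected probes and 7 with the second-brightest probe, which drops genes with 1 probe, against 24 under neqc, 25 under the median and 24 with a replicate left out. The median log2 range was 0.18 without normalization, and 0.055 to 0.077 with a replicate left out, which leaves 2 arrays. Of 980 named genes, 273 moved by over 1 SD without normalization, the cause was not tested, and 318 of 386 moved with the mean over probes. No paired analysis was possible because 1 group was described and its results come from no test. Signals near the detection level do not separate weak expression from background.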

Other observations

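Probes without a single gene symbol in the annotation used here were left out of every count above. Of these 20692 probes with none, 4553 were detected on all 3 arrays (22.0%), against 53.5% of the probes with 1 symbol. At 10 times the detection level or more lay 458 of them, and they made up 38 of the 100 brightest probes, the brightest with a mean intensity of 25262.5. Further bright genes whose second probe was undetected on every array were AKR1D1, a bile acid reductase of liver, at 11631 ± 207 with a second probe at 44.6, and LILRB3, an inhibitory receptor of leukocytes, at 12501 ± 210 with a second probe at 41.7 (SD, n = 3). These genes were chosen after their values were seen.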
